A study of Mus musculus with 12 samples.

Results

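The genes described here are 38 genes of the unfolded protein response and of the early secretory pathway, chosen by symbol from the deposited gene tables. They comprise 9 chaperones and co-chaperones of the endoplasmic reticulum (ER), 5 disulfide isomerases and stress-induced luminal or secreted proteins, 3 stress sensors, 5 transcription factors, 4 targets of the integrated stress response, 7 genes of ER-associated degradation and 5 genes of the translocon and the COPII export coat. All 38 are protein-coding in GENCODE M21 and lie on 16 chromosomes. The tables held 55491 entries, of which 17909 had enough counts to be tested, and all 38 genes were among these. A further table entry with the symbol Ddit3 (ENSMUSG00000116429) had no count in any library and was not tested.

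RNA was measured in whole lungs of wild-type C57BL/6J male mice, 10 weeks old by the labels. Every mouse, the comparison groups included, had received oropharyngeal bleomycin at 0.0125 U per mouse, about 0.5 U per kg, an agent that injures the lung and leads to scarring. A first group of 4 mice was taken at day 14 after bleomycin with no treatment. A second group of 4 was taken at day 21 after vehicle (phosphate-buffered saline), and a final group of 4 at day 21 after nanoparticles of a poly(lactide-co-glycolide) core with a poly(ethylene-alt-maleic anhydride) coat. The particles, 609.22 nm in mean diameter with a spread of 15.30 nm, were given through the retro-orbital route at 2 mg per dose on each day from day 14 to day 18, 5 doses in all. The vehicle's own schedule is not spelled out in the labels, no lungs without bleomycin are among the 12 libraries, and each library is 1 mouse.

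The unfolded protein response is the signalling that matches the folding capacity of the ER to the load of proteins entering it. When unfolded proteins draw the chaperone BiP away from the sensors, IRE1 alpha splices Xbp1 mRNA, PERK phosphorylates the translation factor eIF2 alpha and so favours translation of ATF4, and ATF6 moves to the Golgi, where it is cleaved into a transcription factor. These factors raise chaperones, folding enzymes, degradation genes and export genes. In the lung the pathway is known for its activity in secretory cells with a heavy load, among them surfactant-producing alveolar type 2 cells, plasma cells and collagen-secreting fibroblasts. Splicing of Xbp1, phosphorylation and cleavage are not read by gene-level counts.

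A known promoter element of the response is held by a part of these genes. The ER stress element, through which ATF6 acts together with the factor NF-Y, was searched as CCAAT, 9 bases of any kind and CCACG, on both strands, in the 250 bases before each RefSeq transcription start (GRCm38.p6). Promoter windows were matched for 32 of the 38 genes, all but Atf6, Creb3l1, Derl1, Hyou1, Manf and Sec61a1. The element was found in 9 of the 32 genes (28.1%), against 35 of 27025 genes over all entries (0.1295%). The 35 include these 9, and the members were chosen as genes of this response. The 10 elements are shown because these 9 members share the sequence, and they can be read against the transcript levels below. Each is given 5′ to 3′ on the gene's own strand with 5 bases on either side, and capitals mark the CCAAT and CCACG blocks, or CGTGG and ATTGG where the element runs the other way.
Hspa5, chr2:34772020-34772048, plus strand: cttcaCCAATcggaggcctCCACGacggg
Hsp90b1, chr10:86705633-86705661, minus strand: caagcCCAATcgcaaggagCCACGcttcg
Hsp90b1, chr10:86705528-86705556, minus strand: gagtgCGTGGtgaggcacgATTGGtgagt
Calr, chr8:84847070-84847098, minus strand: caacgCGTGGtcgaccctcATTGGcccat
Canx, chr11:50325795-50325823, minus strand: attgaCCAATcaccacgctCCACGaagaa
Dnajc3, chr14:118937822-118937850, plus strand: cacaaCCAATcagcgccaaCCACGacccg
Pdia6, chr12:17266486-17266514, plus strand: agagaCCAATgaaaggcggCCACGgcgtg
Creld2, chr15:88819515-88819543, plus strand: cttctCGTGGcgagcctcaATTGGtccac
Derl3, chr10:75893237-75893265, plus strand: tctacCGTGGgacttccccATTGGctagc
Syvn1, chr19:6046527-6046555, plus strand: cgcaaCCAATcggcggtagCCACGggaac

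The elements lay from 212 to 26 bases before the RefSeq start, the farthest in Hsp90b1 and the nearest in Syvn1. GENCODE M21 places the start of Hspa5 farther upstream, so that the Hspa5 stretch lies in an annotated exon there. The others lay outside GENCODE genes of the same name. The amino acid response element, which ATF4 binds with a C/EBP partner, was searched as TGATGNAA on both strands. It was far more common, in 1056 of 27025 genes (3.91%), and was held by 3 of the 32 member genes, none of which held the ER stress element. These are shown with the match in capitals, read as TTGCATCA where it runs the other way, since they belong to the branch of the response that ATF4 serves.
Asns, chr6:7693220-7693237, minus strand: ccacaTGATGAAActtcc
Chac1, chr2:119351044-119351061, plus strand: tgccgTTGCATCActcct
Herpud1, chr8:94386312-94386329, plus strand: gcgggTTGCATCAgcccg

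A match describes letters in a window and not a bound site, and a window without one says only that these letters are not there. The Asns stretch lies in an exon of GENCODE M21, the other 2 outside the gene.

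The libraries held 24138582 to 42714693 counts on genes, and scaling factors (TMM) ran from 0.97 to 1.03. Levels below are CPM, each gene's counts relative to the scaled library size, and levels are compared between genes only as TPM, which also allow for transcript length. Differences were tested with edgeR's quasi-likelihood test over all 17909 genes, with Benjamini-Hochberg adjustment and a threshold of 0.05. A gene is said to have risen or fallen only past that threshold, and errors of log2 fold changes are standard errors (SE).

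Per length, the chaperones Calr, Hsp90b1 and Hspa5 were the most abundant of the 38 genes, while the chaperones Dnajb9, Hyou1 and Sdf2l1 ranked 21, 22 and 29 by median TPM. Median TPM over the 12 libraries was 399.6 for Calr, a soluble lectin chaperone, 396.5 for Hsp90b1, which encodes the ER Hsp90 protein Grp94, and 328 for Hspa5, which encodes BiP. Pdia3, the disulfide isomerase that works with the lectin chaperones, followed at 308 TPM. The sensors stood at 24.5 TPM (Atf6), 17.7 TPM (Eif2ak3, which encodes PERK) and 16.5 TPM (Ern1, which encodes IRE1 alpha). Xbp1 was the most abundant of the factors at 171 TPM, before Atf4 at 116, Ddit3 (CHOP) at 32.4, Creb3l2 at 29.4 and Creb3l1 at 9.70 TPM. The lowest members were Trib3 at 5.46, Chac1 at 3.13 and Derl3 at 1.95 TPM. The order is a coarse one, because for 0 of the 37 pairs of neighbours were the ranges over the 12 libraries apart. Derl3 rested on 18 to 60 counts per library and Chac1 on 48 to 133.

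**Figure D1:**
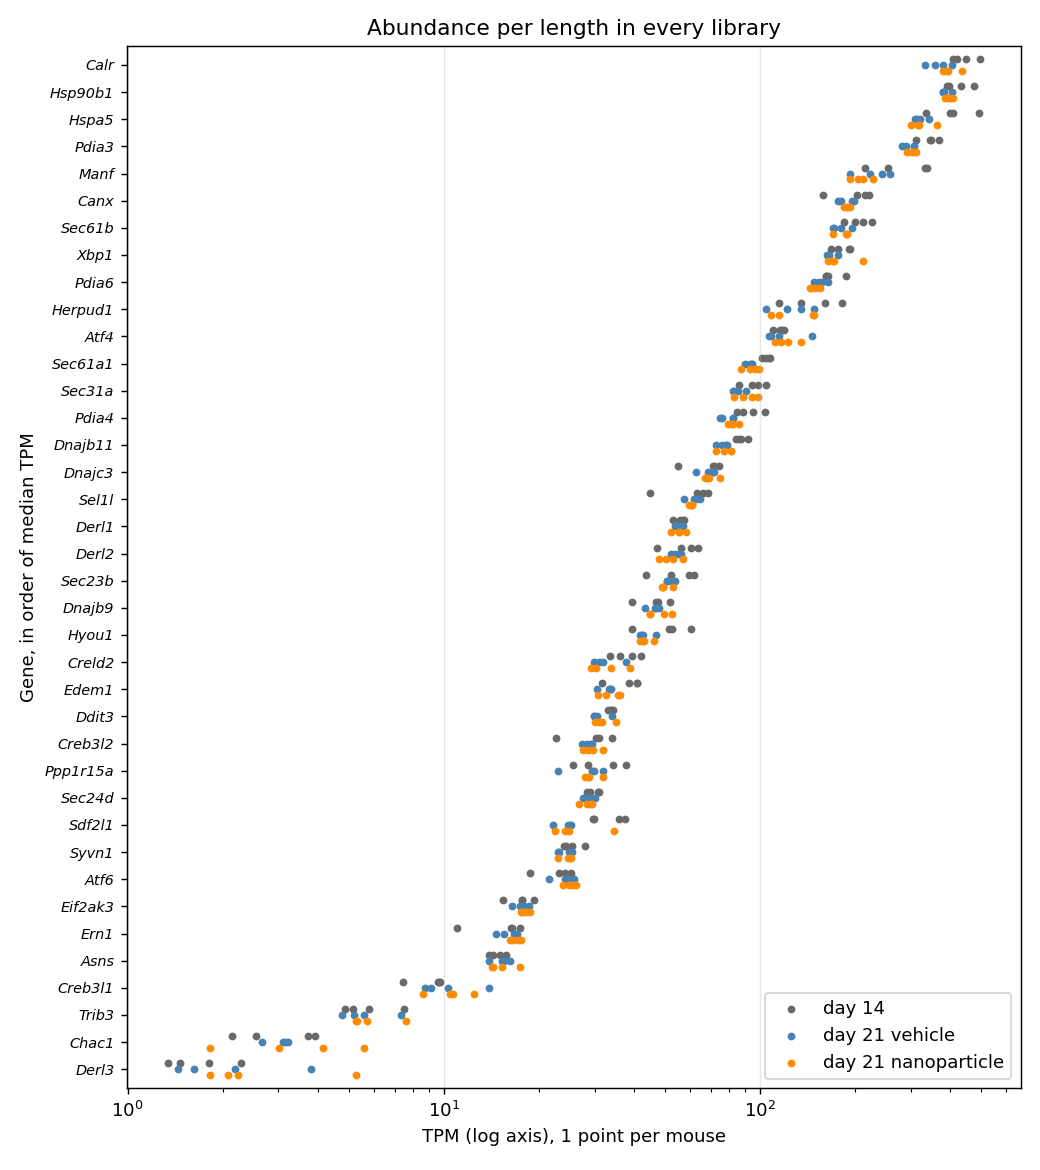
TPM of each of the 38 genes (log axis) in every library, with 1 point per mouse coloured by group and genes in order of median TPM. Calr, Hsp90b1 and Hspa5 sit at the top with medians from 328 to 399.6 TPM and Derl3 at the bottom with 1.95 TPM, and neighbouring genes overlap.

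Between day 14 and day 21 with vehicle, 5 of the 38 genes fell and 0 rose. Those that fell were the BiP co-chaperone Dnajb11, its partner Sdf2l1, the disulfide isomerases Pdia3 and Pdia4, and the translocon pore Sec61a1, by 0.20 to 0.47 on the log2 scale. The share that fell was 13.2% of the 38, beside 6.51% of all genes tested that fell and 3.79% that rose. The log2 fold change was below 0 for 29 of 38 genes (76.3%, beside 49.4% of all genes), with a median of -0.10 beside 0.00 for all genes (0.0031). Leaving out 1 library, it was below 0 for 26 genes (median -0.068 without vehicle mouse 2) to 31 genes (median -0.13 without vehicle mouse 4). The day 14 and vehicle libraries did not overlap for 4 genes, all lower at day 21 (Dnajb11, Sdf2l1, Ddit3 and Sec61a1), and a share of 10.7% of all genes were apart in that direction, so that this count is at the level of the background. The calls are close to the threshold: 0 members were called without day 14 mouse 1 or 3 or vehicle mouse 1, 2 or 3, and 2 without nanoparticle mouse 1 or 2. With limma on log2 TPM the count was 0, with no filter on low counts 1, with only the 2 groups in the fit 2, with another scaling 3 and with DESeq2 7.

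Between day 14 and day 21 with nanoparticles, 3 of the 38 genes fell and 0 rose. They were Dnajb11, the disulfide isomerase Pdia6 and Sec61a1, by 0.18 to 0.21 on the log2 scale. The share that fell was 7.89%, near the 8.56% of all genes that fell, while 6.16% of all genes rose. The log2 fold change was below 0 for 27 of 38 genes (71.1%, beside 48.9% of all genes), with a median of -0.06 beside 0.0062 for all genes. It was below 0 for 22 genes without day 14 mouse 3 (median -0.023) or without nanoparticle mouse 4 (median -0.054). Without nanoparticle mouse 3 it was below 0 for 31 genes (median -0.098). Day 14 and nanoparticle libraries were apart for 4 genes, all lower at day 21 (Dnajb11, Pdia3, Pdia6 and Sec61a1), beside 10.6% of all genes, again at the background. The count was 0 without day 14 mouse 1 or 3, vehicle mouse 1, 2 or 3, or nanoparticle mouse 1, 2 or 4, but 5 without day 14 mouse 4, 6 without day 14 mouse 2 and 7 without nanoparticle mouse 3. It was 0 with limma, with another scaling, with no filter and with only the 2 groups, and 7 with DESeq2. Both comparisons share the day 14 libraries, so that their values are given side by side and are not independent of each other.

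Nanoparticle and vehicle lungs at day 21 were not told apart for any of the 38 genes. edgeR called 0 members and 0.0% of all genes, with 0 members and 762 of the 17909 genes at an unadjusted p under 0.05, and DESeq2 called 0 members and 19 genes. The groups were apart for 0 members, beside 3.55% of all genes. The largest difference was 0.26 (Chac1), and the 95% interval lay within 1.5-fold in either direction for 36 of the 38 genes, spanning -0.34 to 0.46 on the log2 scale over these. The exceptions were the 2 least abundant genes, Chac1 (-0.35 to 0.87) and Derl3 (-0.61 to 0.76). The log2 fold change was above 0 for 30 of 38 genes with a median of 0.04, but without nanoparticle mouse 3 it was below 0 for 22 genes with a median of -0.0070.

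**Figure D2:**
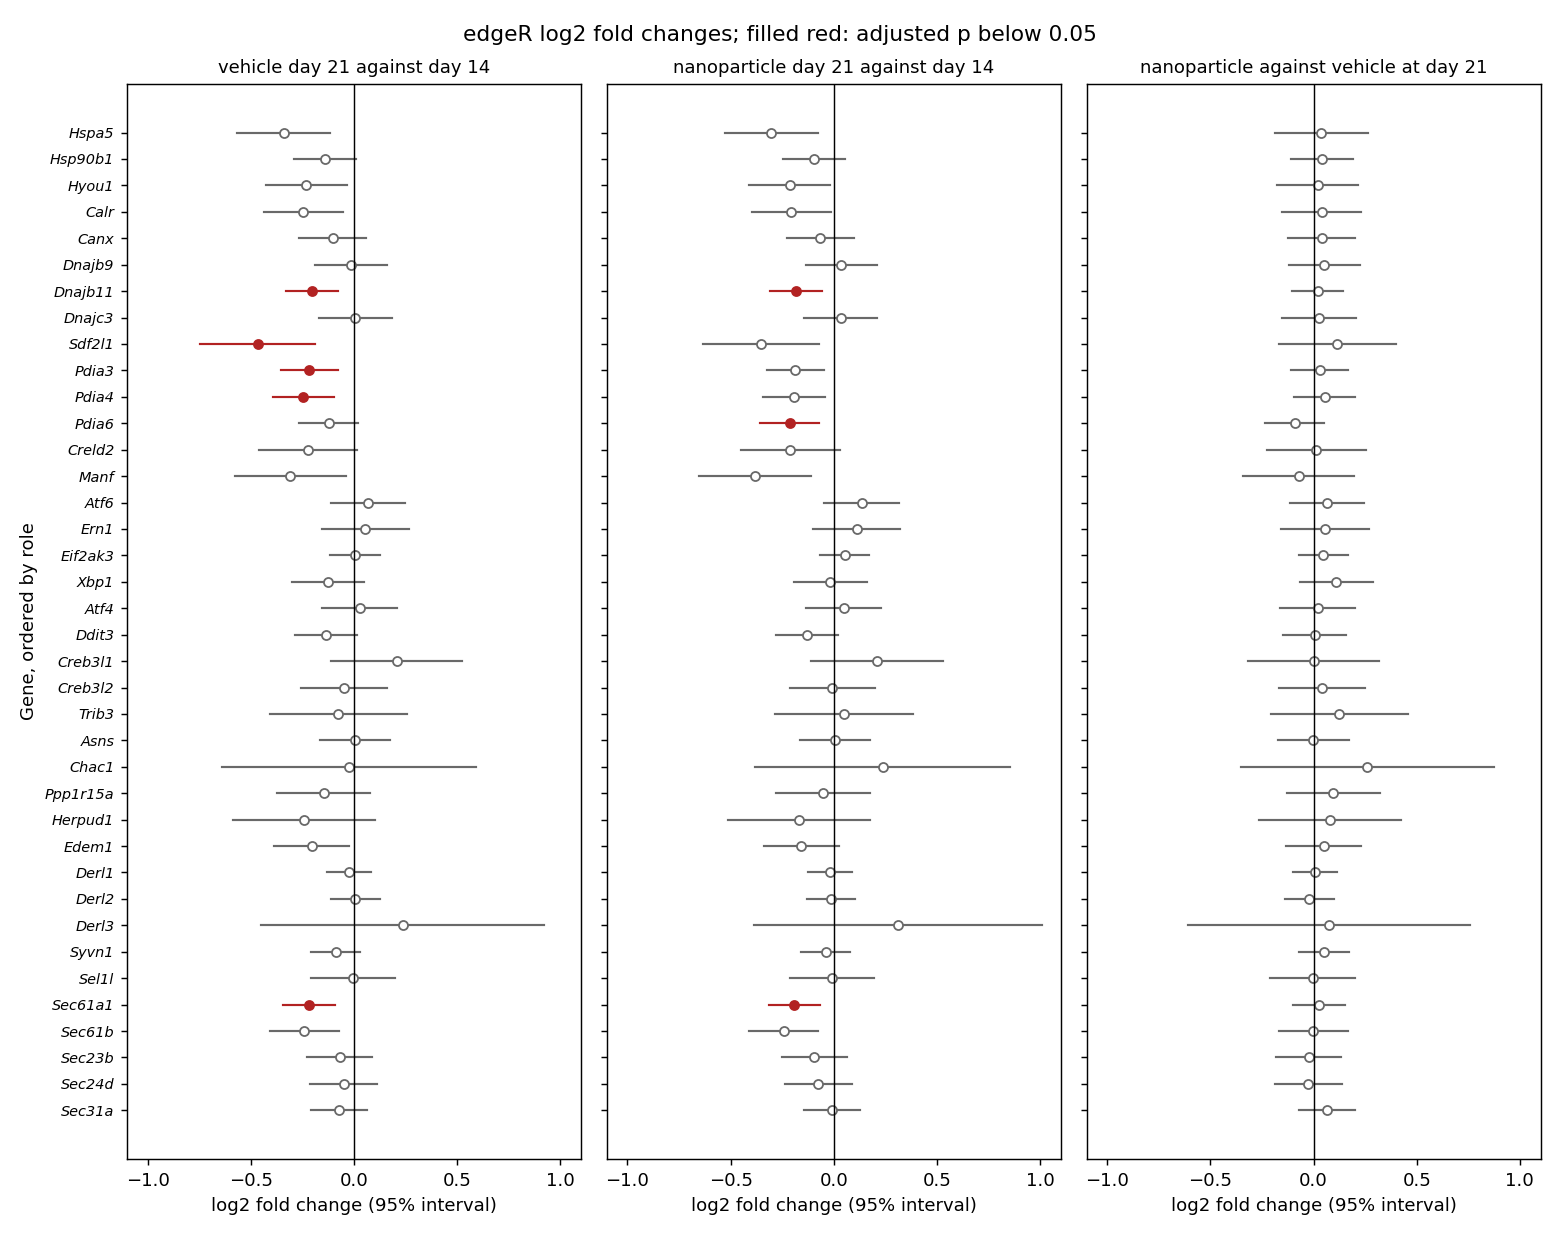
edgeR log2 fold changes of the 38 genes, ordered by role, with 95% intervals, in each of the 3 comparisons; filled red points have an adjusted p below 0.05. Red points lie left of 0 for 5 genes in vehicle against day 14 and for 3 in nanoparticle against day 14, and there are 0 in nanoparticle against vehicle.

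Other cell markers moved between the same groups. Summed over 9 fibroblast markers, of which 0 were absent, the level was 4766 to 5751 CPM at day 14, 3299 to 4322 with vehicle and 3023 to 3693 with nanoparticles, so that the day 14 range lay above both others. Of the 9, 4 fell with vehicle and 5 with nanoparticles, 0 rose, and 3 were above 0 in each comparison. Those 3 were Dcn, Pdgfra and Pdgfrb. Dcn read 145.5 to 163.7 CPM at day 14, 157.4 to 194.4 with vehicle and 162.0 to 191.9 with nanoparticles. The sum was made up mostly of the collagen genes Col1a1, Col1a2 and Col3a1. Col1a1, the main chain of type I collagen, fell by 0.94 with vehicle and by 1.15 with nanoparticles (edgeR adjusted p = 0.00313 and 0.000758). The 6 markers of dividing cells summed to 208 to 224 CPM at day 14, 66.2 to 119 with vehicle and 44.5 to 102 with nanoparticles. The 8 macrophage markers summed to 670.1 to 768 CPM at day 14, 414 to 549 with vehicle and 436 to 704 with nanoparticles. Medians were 733, 504 and 517.5 CPM in that order, and the 704 CPM was nanoparticle mouse 3. All 8 were below 0 in both comparisons, and 3 fell with vehicle and 2 with nanoparticles. The 7 alveolar type 2 markers summed to 25830 to 29960, 28620 to 33410 and 28230 to 30610 CPM in the same order, and 2 of them (Sftpa1 and Slc34a2) rose in each comparison while 0 fell. The part of these markers in the differences of the 38 genes was not tested, and in whole lung fewer cells of a type cannot be told apart from less RNA per cell.

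Of the 9 ER chaperones, 8 had log2 fold changes below 0 against day 14 with vehicle and 7 with nanoparticles, and 2 and 1 of them fell past the threshold. Of all genes, 49.4% and 48.9% were below 0, and 6.51% and 8.56% fell. The 1 of 9 with nanoparticles (11.1%) is near that share. Dnajb11 (ENSMUSG00000004460, chr16:22857845-22879634 in GENCODE M21) encodes ERdj3, a J-domain co-chaperone that brings unfolded clients to BiP. In mice 1 to 4 it read 98.6, 99.6, 102 and 92.2 CPM at day 14, 79.8, 83.6, 87.5 and 90.1 with vehicle, and 84.8, 90.2, 90.5 and 80.3 with nanoparticles. Every day 14 mouse was above every day 21 mouse. Dnajb11 fell by 0.20 with vehicle (SE 0.058, adjusted p = 0.0399 in edgeR) and by 0.18 with nanoparticles (SE 0.058, adjusted p = 0.0482). These calls held in 4 and 3 of the 12 fits that leave out a library.

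Sdf2l1 (ENSMUSG00000022769, chr16:17130138-17132383) encodes a partner of ERdj3 that keeps clients from aggregating. It read 20.9, 17.2, 21.2 and 16.3 CPM at day 14, 12.3, 13.6, 14.1 and 14.7 with vehicle, and 13.7, 13.5, 19.5 and 12.6 with nanoparticles. All vehicle mice were below all day 14 mice, while nanoparticle mouse 3 stood within the day 14 range. Sdf2l1 fell by 0.47 with vehicle (SE 0.130, adjusted p = 0.0368), from 18.9 ± 2.50 to 13.7 ± 1.04 CPM (mean ± SD, n = 4 in each group, edgeR). With nanoparticles the log2 fold change was -0.35 (adjusted p = 0.0846), and without nanoparticle mouse 3 it was -0.50 with an adjusted p of 0.0065 (range over all alternatives 0.0065 to 0.218). The vehicle call held in 7 of 12 fits that leave out a library.

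Hspa5 (ENSMUSG00000026864, chr2:34771970-34777547) encodes BiP, the Hsp70 chaperone that also holds the sensors inactive. Its levels were 602, 499, 726 and 579 CPM at day 14, 439, 470.3, 461 and 529.9 with vehicle, and 457, 451, 551 and 490.0 with nanoparticles. Day 14 mouse 3 was the highest library and day 14 mouse 2 lay inside the day 21 range, so that the groups overlapped. The log2 fold changes were -0.34 (95% interval -0.57 to -0.12) and -0.30 (-0.53 to -0.079), and neither passed the threshold (edgeR adjusted p = 0.0535 and 0.0666). DESeq2 called both, and so did edgeR without day 14 mouse 2 or without nanoparticle mouse 3.

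Hsp90b1 (ENSMUSG00000020048, chr10:86690209-86705509) encodes Grp94, which folds integrins and Toll-like receptors among others. It read 699, 682, 814 and 729 CPM at day 14, 623, 653, 652 and 727 with vehicle, and 667, 666, 700.4 and 699 with nanoparticles. The groups overlapped, with day 14 mouse 3 the highest of the 12. The differences from day 14 were -0.14 ± 0.070 (SE, edgeR adjusted p = 0.218) and -0.098 ± 0.070 (adjusted p = 0.368).

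Of the other chaperones, the BiP exchange factor Hyou1 had log2 fold changes of -0.23 with vehicle and -0.21 with nanoparticles and the lectin chaperone Calr of -0.25 and -0.21, with adjusted p from 0.0906 to 0.133 (edgeR). Canx, the membrane-bound lectin chaperone, was at -0.10 and -0.065. Dnajb9 (ERdj4), a J-domain protein that restrains IRE1, and Dnajc3 (p58IPK), another BiP co-chaperone, lay within 0.04 of 0 in both comparisons. Intervals of Hspa5, Hyou1 and Calr lay below 0 in both comparisons before adjustment, and those of Canx, Dnajb9 and Dnajc3 included 0. The intervals of these genes overlapped, and differences between the chaperones were not tested.

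All 5 disulfide and stress-secreted genes were below 0 against day 14 in both comparisons, 2 of them past the threshold with vehicle and 1 with nanoparticles. Beside them stand 49.4% and 48.9% of all genes below 0, and 6.51% and 8.56% of all genes that fell. Pdia3 (ENSMUSG00000027248, chr2:121413775-121438687) encodes ERp57, which forms disulfide bonds in glycoproteins held by calnexin and calreticulin. It read 541, 593, 625 and 576 CPM at day 14, 467, 514, 487 and 543 with vehicle, and 504, 527, 522 and 501 with nanoparticles. Vehicle mouse 4 overlapped the lowest day 14 mouse, and all nanoparticle mice were below day 14. Pdia3 fell by 0.22 with vehicle (SE 0.065, edgeR adjusted p = 0.0485), while with nanoparticles the value was -0.19 (SE 0.065, adjusted p = 0.0682). Its vehicle call held in 1 of the 12 fits that leave out a library, the one without vehicle mouse 4.

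Pdia4 (ENSMUSG00000025823, chr6:47796141-47813430), an isomerase also known as ERp72, read 131, 122, 150.5 and 133 CPM at day 14. It read 106, 116, 108 and 123 CPM with vehicle and 114, 117, 124 and 115 with nanoparticles. Day 14 mouse 2 overlapped the highest mouse of each day 21 group. Pdia4 fell by 0.25 with vehicle (SE 0.069, edgeR adjusted p = 0.0387), and the nanoparticle value was -0.19 (SE 0.069, adjusted p = 0.0776). The vehicle call held in 4 of 12 fits without a library.

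Pdia6 (ENSMUSG00000020571, chr12:17266545-17284770), an isomerase known to limit IRE1 signalling, read 204, 202, 228 and 194 CPM at day 14. It read 177, 189.7, 184 and 209.6 CPM with vehicle and 170.1, 177, 188 and 180.0 with nanoparticles. All nanoparticle mice were below day 14, and vehicle mouse 4 was inside the day 14 range. Pdia6 fell by 0.21 with nanoparticles (SE 0.067, edgeR adjusted p = 0.0463), and the vehicle value was -0.12 (SE 0.067, adjusted p = 0.25). The nanoparticle call held in 4 of 12 fits without a library. The difference between nanoparticle and vehicle lungs itself was -0.091 (95% interval -0.23 to 0.053, adjusted p = 0.999), so that a difference in this fall was not shown.

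The stress-induced secreted protein Manf had log2 fold changes of -0.31 with vehicle and -0.38 with nanoparticles (edgeR adjusted p = 0.129 and 0.058). Its day 14 libraries were split, with 104 and 105 CPM in mice 1 and 3 and 74.3 and 78.3 in mice 2 and 4, beside 62.0 to 86.0 with vehicle and 63.5 to 77.0 with nanoparticles. Creld2, induced by ER stress and able to exchange disulfides, was at -0.22 and -0.21 (adjusted p = 0.211 and 0.219).

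**Figure D3:**
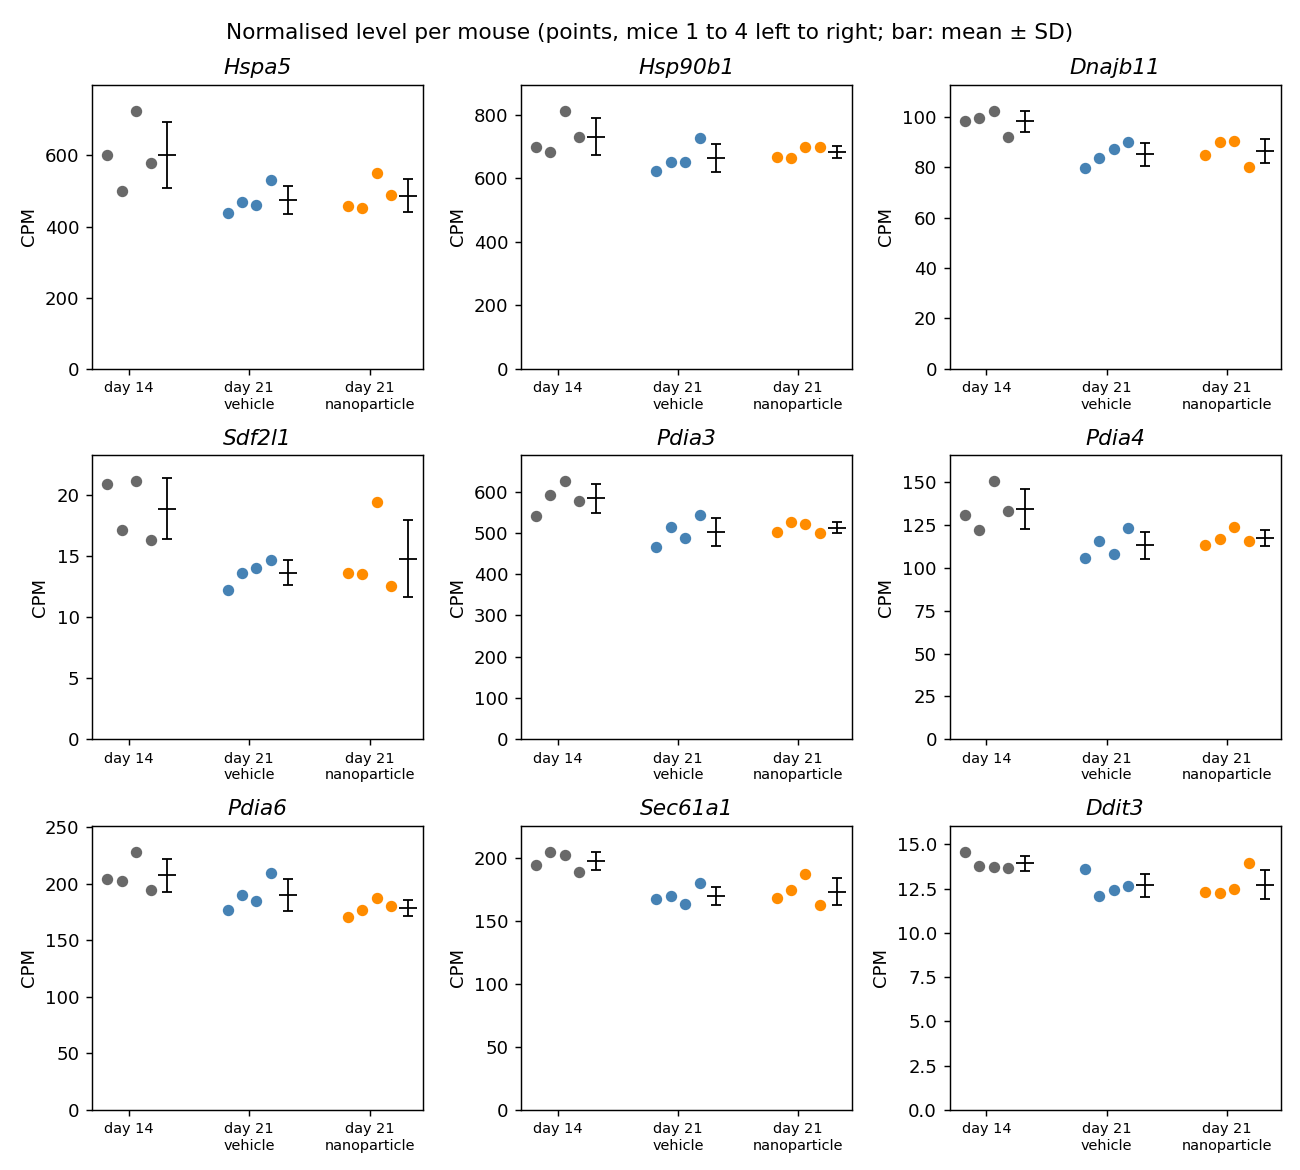
CPM per mouse (axis from 0) for 9 genes in the 3 groups, with mean ± SD beside the 4 points. Day 14 points lie above all day 21 points for Dnajb11 and Sec61a1, nanoparticle mouse 3 stands apart at 19.5 CPM for Sdf2l1, and day 14 mouse 3 is highest for Hspa5 at 726 CPM.

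None of the 3 sensor genes passed the threshold in either comparison with day 14, and their log2 fold changes were all above 0. With 10.3% (vehicle) and 14.7% (nanoparticle) of all genes called, 0 of 3 is near the background. Of the 17909 genes tested, 9065 were above 0 with vehicle and 9159 with nanoparticles. Atf6, whose product is the membrane-bound factor cleaved in the Golgi, read 112, 90.1, 115 and 118 CPM at day 14, 112, 101, 121 and 122 with vehicle, and 116, 122, 125 and 115 with nanoparticles. Its log2 fold changes were 0.068 and 0.13 (edgeR adjusted p = 0.635 and 0.298). Day 14 mouse 2 was the lowest of the 12 libraries and the other mice overlapped.

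Ern1 read 70.6, 48.6, 67.1 and 72.4 CPM at day 14, 68.9, 62.2, 71.3 and 66.6 with vehicle, and 69.5, 68.5, 73.8 and 67.7 with nanoparticles. The differences were 0.055 and 0.11 (edgeR adjusted p = 0.758 and 0.488), and without day 14 mouse 2, again the lowest, the vehicle value was -0.047. Eif2ak3 was the steadiest of the sensors, at 49.5, 43.5, 49.0 and 50.8 CPM at day 14, 48.5, 49.1, 48.0 and 48.0 with vehicle, and 48.2, 51.1, 52.7 and 48.2 with nanoparticles. Its log2 fold changes were 0.0049 (95% interval -0.11 to 0.12) and 0.053 (-0.067 to 0.17).

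The 5 factor genes likewise gave no call, which is near the 10.3% and 14.7% of all genes called against day 14. Xbp1, counted here without regard to splicing, read 196, 208, 219 and 212 CPM at day 14, 195, 183, 185 and 202 with vehicle, and 182, 199.9, 247 and 197 with nanoparticles. Nanoparticle mouse 3 was the highest library and the groups overlapped, with log2 fold changes of -0.13 and -0.016 (edgeR adjusted p = 0.336 and 0.917). Atf4, the factor of the integrated stress response that is controlled mainly in translation, read 112, 117, 116 and 115 CPM at day 14, 142, 112, 107 and 109 with vehicle, and 130.4, 115, 121 and 110.4 with nanoparticles. Vehicle mouse 1 was the highest, the log2 fold changes were 0.027 and 0.048, and without vehicle mouse 1 the vehicle value was -0.068.

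Ddit3 (ENSMUSG00000025408, chr10:127290774-127296288) encodes CHOP, a factor that promotes cell death when stress lasts. It read 14.6, 13.8, 13.8 and 13.7 CPM at day 14, 13.6, 12.1, 12.4 and 12.7 with vehicle, and 12.3, 12.2, 12.5 and 13.9 with nanoparticles. All vehicle mice were below day 14 by a narrow margin, and nanoparticle mouse 4 was inside the day 14 range. Neither log2 fold change passed the threshold, at -0.14 and -0.13 (SE 0.070 in each, edgeR adjusted p = 0.228 and 0.226).

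Creb3l1 (OASIS) and Creb3l2 (BBF2H7) encode membrane-bound relatives of ATF6 that support secretion of collagen and other matrix. Creb3l1 read 12.1, 15.7, 15.3 and 14.8 CPM at day 14, 14.1, 21.8, 13.7 and 17.0 with vehicle, and 16.2, 19.7, 17.0 and 13.8 with nanoparticles. Its log2 fold changes of 0.21 in both comparisons had intervals that included 0 (-0.11 to 0.53 in each). Creb3l2 read 145, 106, 156 and 137 CPM at day 14, 128, 124, 134 and 139.8 with vehicle, and 135, 131, 148 and 128 with nanoparticles, with differences of -0.049 and -0.0074. The groups of both genes overlapped.

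Of the 4 integrated stress response targets, 0 were called in any comparison. That is near the background, since 10.3% and 14.7% of all genes were called against day 14. Ppp1r15a, which encodes GADD34, the subunit that directs dephosphorylation of eIF2 alpha, had values of -0.15 and -0.052, with its highest library at 52.1 CPM in day 14 mouse 2. Asns, which makes asparagine, was at 15.9 to 19.7 CPM in all libraries, with log2 fold changes of 0.0061 and 0.0051. Trib3, a pseudokinase induced with CHOP, was at -0.076 and 0.049, and Chac1, which degrades glutathione, at -0.023 and 0.24 with intervals that reach from -0.64 to 0.85.

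Of the 7 degradation genes, which return misfolded proteins to the cytosol for the proteasome, 0 passed the threshold in any comparison. Against day 14, 10.3% of all genes were called with vehicle and 14.7% with nanoparticles, so that 0 of 7 is near the background. Herpud1, a scaffold of the degradation complex, varied widely within groups (193, 120.4, 167 and 138 CPM at day 14) and differed by -0.24 and -0.17 (SE 0.158 and 0.159). Edem1, which helps select glycoproteins for degradation, was at -0.21 and -0.16 (edgeR adjusted p = 0.131 and 0.224). The ubiquitin ligase Syvn1 (Hrd1) was at -0.090 and -0.040, and its adaptor Sel1l and the derlins Derl1 and Derl2 lay within 0.03 of 0. Derl1 had the smallest spread of the 38 genes, with an SD of 0.049 on the log2 CPM scale within groups.

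Derl3, the least abundant derlin, is known for its expression in plasma cells. It read 1.29, 1.06, 1.12 and 0.652 CPM at day 14, 0.916, 1.60, 1.18 and 1.19 with vehicle, and 0.861, 1.04, 2.34 and 0.942 with nanoparticles. Nanoparticle mouse 3 was the highest, and the sum of 10 plasma cell markers was also highest there, at 1516 CPM beside 594.5 to 964 CPM in the other libraries. Of the 10 markers, 4 (Jchain, Mzb1, Ighm and Igkc) were highest in that mouse and 6 in other libraries. In that mouse the antibody chain genes Igkc and Ighm read 261 and 653 CPM and Jchain, which joins secreted antibodies, read 131 CPM. Of the 6, Igha, Iglv1 and Tnfrsf17 were highest in vehicle mouse 2. Irf4 and Prdm1 were highest in nanoparticle mouse 2, and Sdc1 in day 14 mouse 1. Igha read 118.5 CPM in nanoparticle mouse 3 beside 202 in vehicle mouse 2, and Prdm1 read 18.6 beside 30.2 in nanoparticle mouse 2. The part of plasma cells in the levels of Derl3 was not tested.

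In the translocon and COPII group all 5 genes were below 0 against day 14 in both comparisons, and only Sec61a1 fell in edgeR, in both. Beside these counts, 49.4% and 48.9% of all genes were below 0, and 6.51% and 8.56% fell. Sec61a1 (ENSMUSG00000030082, chr6:88503579-88518905) encodes the pore through which new proteins enter the ER. It read 194, 205, 202 and 189 CPM at day 14, 167, 169.5, 163 and 179.7 with vehicle, and 168, 174, 187 and 162 with nanoparticles. Every day 14 mouse was above every day 21 mouse, though nanoparticle mouse 3 came close to day 14 mouse 4. Sec61a1 fell by 0.22 with vehicle (SE 0.058, edgeR adjusted p = 0.0311), from 197.5 ± 7.29 to 169.8 ± 7.13 CPM (mean ± SD, n = 4 in each group). With nanoparticles it fell by 0.19 (SE 0.058, adjusted p = 0.0419). The vehicle call held in 7 of 12 fits that leave out a library, and the nanoparticle call in 3 of 12.

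The translocon subunit Sec61b had log2 fold changes of -0.24 in both comparisons, as large as those of Sec61a1, with edgeR adjusted p of 0.0619 and 0.0502. The coat genes Sec23b and Sec24d, which form the inner COPII layer and choose cargo, and Sec31a of the outer layer lay between -0.094 and -0.0082 in both comparisons. Large cargo such as procollagen leaves the ER in COPII carriers, and the 3 coat genes did not pass the threshold here. Nor did most genes, with 10.3% and 14.7% of all genes called against day 14.

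Genes of the same pathway outside the 38 were counted from lists that were chosen with earlier results of these data known. The counts therefore describe these genes and are not independent support. Beside them stand the 6.51% (vehicle) and 8.56% (nanoparticle) of all genes that fell. The shares of all genes that rose were 3.79% and 6.16%. Of 16 N-glycosylation genes 4 fell with vehicle and 6 with nanoparticles and 0 rose, and the log2 fold change was below 0 for 16 and 15 of them with medians of -0.15 in both. Prkcsh, the beta subunit of glucosidase II, fell by 0.31 and 0.33 (edgeR adjusted p = 0.00862 and 0.00399), and Alg5, an enzyme of lipid-linked sugar synthesis, by 0.18 and 0.21. Dad1 and Ostc, subunits of the oligosaccharyltransferase, fell by 0.27 and 0.23 with nanoparticles, and were at -0.15 and -0.18 with vehicle (adjusted p = 0.125 and 0.0694). These genes work directly after the translocon, to which the oligosaccharyltransferase is attached.

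Of 22 genes of translocation and signal peptide cleavage, 1 fell with vehicle, 6 with nanoparticles and 0 rose. Ssr2, a subunit of the translocon-associated protein complex, fell by 0.31 and 0.40 (edgeR adjusted p = 0.00911 and 0.00179). Sec61g, the smallest translocon subunit, fell by 0.37 with nanoparticles, and was at -0.28 with vehicle (adjusted p = 0.0833). Of 24 genes of COPII and ER-Golgi traffic, 1 fell with vehicle and 4 with nanoparticles and 0 rose. Kdelr2, a receptor that returns escaped ER chaperones, fell by 0.20 in both, and Tmed9, a cargo receptor, fell by 0.32 with nanoparticles, with -0.17 for vehicle (adjusted p = 0.096).

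Of 17 other folding genes 3 fell with vehicle and 0 rose, and 5 fell and 1 rose with nanoparticles. P4hb, the disulfide isomerase that is also a subunit of collagen prolyl hydroxylase, fell by 0.26 and 0.29 (edgeR adjusted p = 0.024 and 0.0104), and Erp29, an ER folding factor, fell by 0.32 in both. Of 20 other degradation genes 0 fell and 1 rose with vehicle, and 1 fell and 2 rose with nanoparticles. Beside the 3.79% and 6.16% of all genes that rose, 1 and 2 of 20 are near the background. Svip, an inhibitor of ER-associated degradation, rose by 0.42 and 0.45 (adjusted p = 0.00705 and 0.00345).

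Of 29 further integrated stress response genes 6 fell and 1 rose with vehicle and 4 fell and 1 rose with nanoparticles. Among the 38, 0 of the 4 listed targets were called, which is near the 10.3% and 14.7% of all genes called. Psat1, an enzyme of serine synthesis, fell by 0.62 and 0.59 (edgeR adjusted p = 0.00151 and 0.00055). Slc7a5, a transporter of large amino acids, fell by 0.55 and 0.47, and Sesn2, a leucine sensor, by 0.59 and 0.55. Vldlr, a lipoprotein receptor, rose by 0.34 and 0.36, the 1 of 29 that rose, beside 3.79% and 6.16% of all genes. Between nanoparticle and vehicle lungs 0 genes of any of these 6 lists were called by edgeR.

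Genes with and without the ER stress element were set side by side. Of the 9 genes with the element shown above, 0 fell with vehicle and 1 (Pdia6) with nanoparticles, and of the 23 genes with a window but without the element 4 and 1 fell. Beside the 6.51% and 8.56% of all genes that fell, counts of 0 and 1 of 9 are at the level of the background. The vehicle and nanoparticle values against day 14 were -0.34 and -0.30 for Hspa5, -0.25 and -0.21 for Calr, -0.22 and -0.21 for Creld2, -0.14 and -0.098 for Hsp90b1, and -0.12 and -0.21 for Pdia6. They were -0.10 and -0.065 for Canx, -0.090 and -0.040 for Syvn1, 0.0069 and 0.033 for Dnajc3, and 0.24 and 0.31 for Derl3. Values of genes that hold the element thus ran from -0.34 to 0.31. Over all genes, 20 of the 35 with the element were tested. Of these 20, with vehicle 0 fell and 2 rose, and with nanoparticles 1 fell and 1 rose. Of all genes, 3.79% rose with vehicle and 6.16% with nanoparticles. Those that rose, named after their values were seen, were Ptgdr2 (0.81 with vehicle) and Acacb (0.29 with vehicle and 0.35 with nanoparticles). Of the 3 genes with the amino acid response element 0 were called, beside 10.3% and 14.7% of all genes called against day 14.

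Certain libraries were high or low for many of the 38 genes at a time. Day 14 mouse 3 was the highest of the 12 libraries for 18 of the 38 genes, beside 10.6% of all genes, and nanoparticle mouse 3 for 11, beside 9.74% of all genes. Day 14 mouse 2 was the lowest for 13 of the 38 genes and for 19.98% of all genes, and vehicle mouse 1 the lowest for 9. The 8 immediate early genes, a sign of handling or acute stimulus, summed to 1415 CPM in day 14 mouse 2, beside 408 to 777 in the day 21 libraries and 527 in the lowest day 14 mouse. The part of that in the levels of day 14 mouse 2 was not tested. Within groups the median SD of log2 CPM was 0.125 for the 38 genes and 0.153 for all genes. At an average of at least 3 on the log2 CPM scale it was 0.121 for 35 of the 38 genes and 0.111 for 11409 genes.

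**Figure D4:**
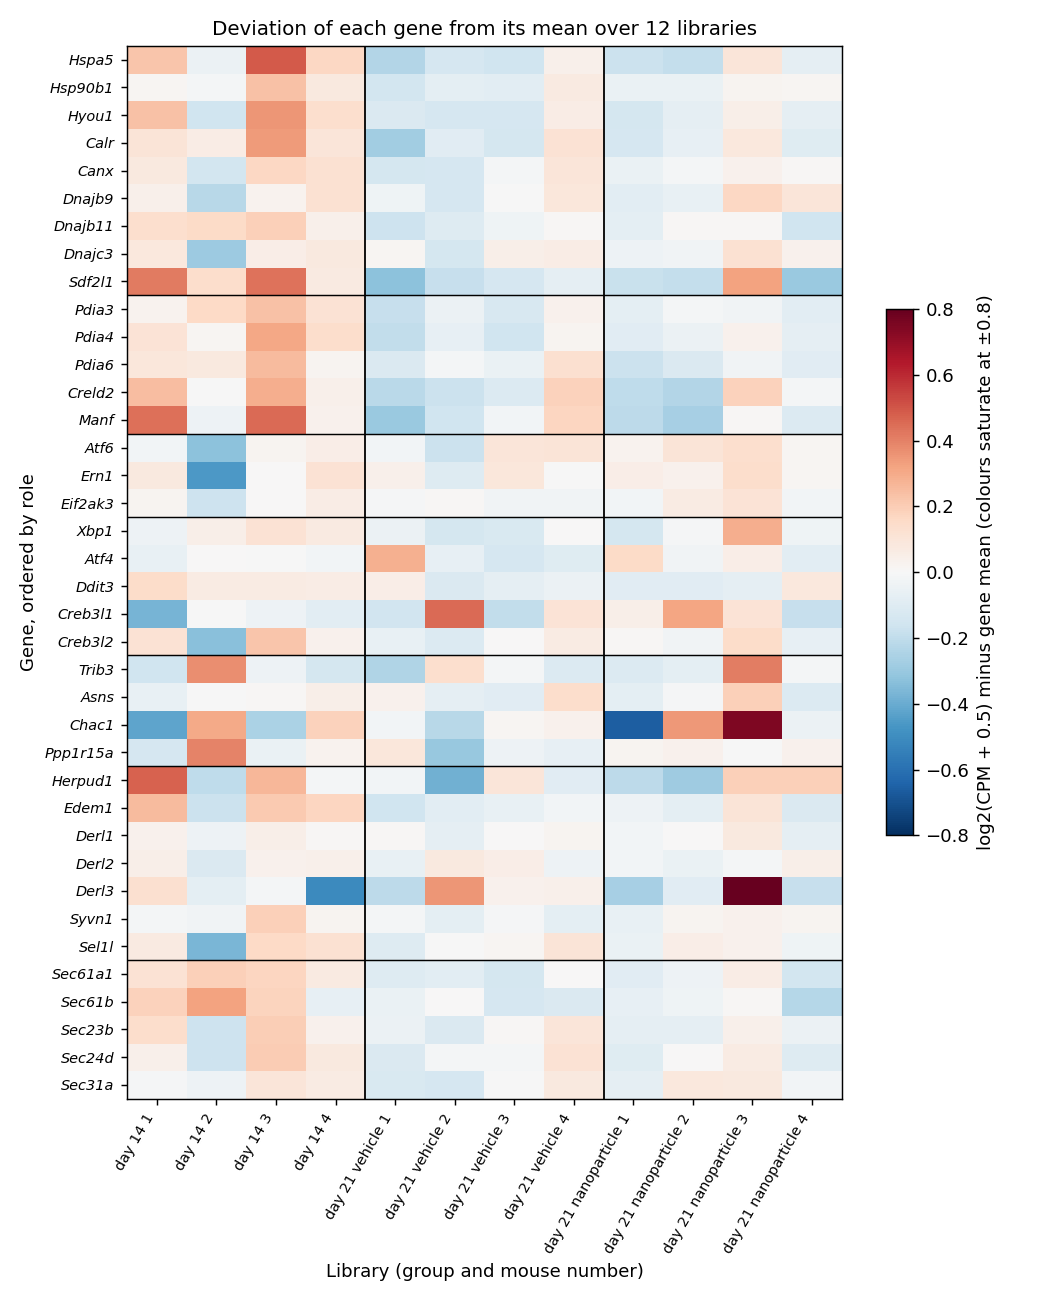
Deviation of log2(CPM + 0.5) from each gene's mean over the 12 libraries (colours saturate at 0.8 in either direction), with genes ordered by role and libraries by group. Day 14 mice 1, 3 and 4 lie above the gene mean (red) for 28, 32 and 32 of the 38 genes. Vehicle mouse 4 does so for 26 and nanoparticle mouse 3 for 33. These numbers were counted on log2 CPM with a prior count of 2 and not on the plotted values. Day 14 mouse 2 is blue for the sensors, Dnajc3 and Sel1l, and Derl3 is darkest in nanoparticle mouse 3.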

How the data were processed

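Whole-lung RNA of 12 mice (4 per group) was sequenced with paired reads of 151 bp, per the labels' protocols. Tools listed in the submitters' processing notes are RSEM 1.3.3, STAR 2.7.8a and cutadapt 4.8, beside MultiQC 1.20 and FastQC 0.11.8 for quality reports, on GRCm38. For annotation release and strand, nothing was given in the sources used here. Expected counts per gene deposited by the authors were whole numbers. The TPM values deposited by the authors are scaled to the same total in each library, and were used for levels between genes. A table of FPKM was not used.

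Genes were kept with filterByExpr (minimum count 10, minimum total 15), scaled with TMM and tested in 1 quasi-likelihood fit of all 12 libraries with edgeR 4.0.16 in R 4.3.3 (two-sided, Benjamini-Hochberg over 17909 genes, threshold 0.05). The script was tested on simulated data. DESeq2 1.42.0, limma 3.58.1, another scaling (RLE), no filter, fits of only the 2 groups, a mouse-number term and leaving out each library were the alternatives. The 4 table rows that name no Ensembl gene had a summed count of 0. Chi-square divided by its degrees of freedom was 8.17 to 33.7 between libraries of a group, so that none was a repeat of another. Genes given in every library were those past the threshold in any comparison and a preset list of 3 sensors, 5 factors, Hspa5 and Hsp90b1, and from each pathway list at most 4 genes past the threshold with the smallest p. The members and lists were chosen with earlier results of these data known. A list of proteins ending in the ER retrieval signal was planned and not used here. Each p-value tests a difference between group levels against the spread between mice.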

Additional observations from a re-analysis of the deposited data

Results flagged for a closer look

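Of 114 sets of 4 libraries (38 genes in 3 groups), 11 (9.65%) had a library that stood apart from the other 3 of its group, with a gap to the nearest above the 95% limit of Dixon's test for 4 values. For independent sets of normally distributed values that limit is passed in about 1 in 20. The sets here share the same 12 libraries and are not independent, so that 9.65% cannot be tested against that rate.

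Nanoparticle mouse 3 stood high for Sdf2l1 (19.5 CPM, others 12.6 to 13.7), Trib3 (9.03 CPM, others 6.16 to 6.60) and Derl3 (2.34 CPM, others 0.861 to 1.04). Nanoparticle mouse 4 stood high for Ddit3 (13.9 CPM, others 12.3 to 12.5), and nanoparticle mouse 1 low for Syvn1 (48.5 CPM, others 51.4 to 52.0). Day 14 mouse 2 stood low for Dnajc3 (186 CPM, others 235 to 241) and Derl2 (63.6 CPM, others 70.7 to 71.5). Day 14 mouse 3 stood high for Calr (598 CPM, others 493 to 508) and day 14 mouse 1 for Ddit3 (14.6 CPM, others 13.7 to 13.8). Vehicle mouse 1 stood high for Atf4 (142 CPM, others 107 to 112) and vehicle mouse 4 for Hyou1 (127 CPM, others 110.4 to 112).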

How the results depend on the processing

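The counts of members called against day 14 moved with the processing. With vehicle, where 5 were called, RLE scaling gave 3, no filter 1, limma on log2(TPM + 0.5) and log2(TPM + 0.1) 0 and 0, only the 2 groups compared 2, and leaving out 1 library 0 to 7. With nanoparticles, where 3 were called, the counts were 0, 0, 0, 0 and 0 in the same order, 7 with DESeq2 and 0 to 7 leaving out 1 library. Over all genes, limma called 1032 and 995 in place of 1845 with vehicle, and 1584 and 1577 in place of 2636 with nanoparticles. Only the 2 groups gave 1672 with nanoparticles, and leaving out 1 library gave 719 to 2162 and 1363 to 2934. Nanoparticle against vehicle stayed at 0 genes except with DESeq2 (19), and at 0 members throughout. With a block for the mouse number, members called were 4, 2 and 0, of which 2 of the 5 with vehicle and 0 of the 3 with nanoparticles were shared, and genes called 1673, 2419 and 0. The mice are separate animals, and correlations of deviations between same-numbered mice were -0.074 to 0.148, over 0.1 in 2 of 12 pairs, so that the numbers do not pair them. Of 912 alternative values of the 16 genes given per library, 752 kept direction and side of the threshold, 103 lost it, 12 gained it and 45 changed sign, 0 of these past the threshold. Only a called value can lose the threshold. The 103 therefore belong to the 5 calls with vehicle and the 3 with nanoparticles. Each call has 19 alternatives, and most alternatives of the calls lost the threshold. Leaving out 1 library, values that changed sign for nanoparticle against vehicle ran from -0.029 to 0.12 (Atf4), -0.090 to 0.16 (Creb3l1), -0.0023 to 0.071 (Creb3l2), -0.042 to 0.038 (Ddit3), -0.011 to 0.053 (Dnajb11), -0.027 to 0.092 (Hspa5), -0.0047 to 0.067 (Pdia3), -0.044 to 0.19 (Sdf2l1) and -0.013 to 0.056 (Sec61a1). For vehicle against day 14 they ran from -0.068 to 0.071 (Atf4), -0.14 to 0.023 (Creb3l2), -0.029 to 0.042 (Eif2ak3) and -0.047 to 0.12 (Ern1), and for nanoparticle against day 14 from -0.099 to 0.064 (Creb3l2) and -0.10 to 0.046 (Xbp1). Creb3l1 for nanoparticle against vehicle was also at -0.011 with no filter and -0.00088 with only the 2 groups, and Ddit3 at -0.0059 with no filter. Creb3l2 for nanoparticle against day 14 was at 0.0017 with DESeq2, 0.0078 and 0.0081 with limma and 0.0020 with the block for the mouse number. The causes were not tested. Derl3 rested on 18 to 60 counts per library and Chac1 on 48 to 133. Their SDs of log2 CPM within groups were 0.4685 and 0.467. The part of depth in this spread was not tested.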
